A study of Mus musculus with 8 samples.

Results

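The coagulation and fibrinolysis genes described here are 34 genes picked by symbol: clotting factors, the fibrinogen chains, the kinin system, the plasminogen system, anticoagulants of the protein C and tissue factor pathways, the vitamin K cycle and the cargo receptor of factors V and VIII. These genes and the other gene lists below were chosen with earlier results of these data known. Counts of calls set beside shares of all genes are therefore descriptive. The 34 genes were sought among the 23337 gene symbols of the deposited count tables. All 34 were found in each of the 8 liver samples, and all 34 were among the 14328 genes that passed the filter on low counts and were tested. The samples came from C57BL/6 mice aged 12 weeks of 2 genotypes, WT and HRD1Alb, and the feeding states were an overnight fast and a fast followed by 4 h of refeeding, which gave 4 groups of 2 samples. HRD1Alb mice carry floxed HRD1 and a Cre transgene driven by the albumin enhancer and promoter, a promoter active in hepatocytes. The labels give this genotype as Hrd1-/- and the other as WT, and the study describes floxed mice without Cre as its controls. Read totals ran from 40210576 to 49117080 per sample, and the 34 genes took between 1.43% and 2.33% of them.

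Clotting is a chain of proteases that activate one another, ends with thrombin cutting fibrinogen into fibrin, and is held back by antithrombin, protein C and the tissue factor pathway inhibitor. Hepatocytes make most of the soluble factors and secrete them through the endoplasmic reticulum, the compartment in which HRD1, a ubiquitin ligase, marks misfolded proteins for degradation. Plasmin, cut from plasminogen, dissolves fibrin again, and several factors become functional only after vitamin K-dependent carboxylation. The comparisons ask how transcript levels of these genes differed between HRD1Alb and WT liver in each feeding state, and how they differed between refed and fasted liver in each genotype.

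The targeted gene, listed as Syvn1, was measured at 110.7 and 99.8 CPM (counts per 1000000 counts after TMM scaling) in WT fasted liver and at 32.6 and 31.5 CPM in HRD1Alb fasted liver. In the refed state it was at 637 and 305 CPM in WT and at 453 and 132 CPM in the libraries labelled HRD1Alb refed 1 and 2. The fasted groups did not overlap (3.28-fold lower, log2 fold change -1.72, SE 0.56, edgeR quasi-likelihood adjusted p = 0.170). The library labelled HRD1Alb refed 1 lay between the WT refed samples. In refed liver the log2 fold change was -0.69 (SE 0.55, edgeR adjusted p = 0.391). With refeeding Syvn1 rose 9.14-fold in HRD1Alb liver (edgeR adjusted p = 0.0213). The study reports that HRD1 mRNA was eliminated in HRD1Alb liver. The count covers the whole gene and the deleted exons are not given in the sources used here. Syvn1 could therefore not check the label of the library HRD1Alb refed 1 further. The sum of 7 macrophage and monocyte markers, described below, was 48.97 CPM in that library, against 6.79 and 6.96 CPM in WT refed liver. For Kupffer cell markers the sums were 311 CPM against 143 and 144 CPM. Whether the label is right was not tested. The refed HRD1Alb libraries also differed from each other more than any other pair did: 3204 genes lay at least 2-fold apart, against 424 to 1141 in the other groups, and the ratio of library 2 to library 1 fell with transcript length (Spearman rho -0.591 across 12968 genes, -0.507 across the 34 genes). Counts of refed calls are therefore given with and without these libraries, and for some genes the refed fold changes are as well. Leaving either out leaves 1 sample in its group and takes this pair out of the estimate of spread. More of all genes passed in such fits, so a call kept there says little. Of 8 listed hepatocyte markers 7 were found by symbol, and their summed level was 133376 and 148107 CPM in WT fasted, 92773 and 92109 CPM in HRD1Alb fasted, 108468 and 116287 CPM in WT refed, and 67944 and 110655 CPM in HRD1Alb refed liver. Alb, the albumin gene, carried most of the sum (47753 to 110880 CPM), and Ahsg went the other way, with means of 8562 CPM in WT and 10984 CPM in HRD1Alb fasted liver. The marker sums are TMM-scaled, and a larger TMM factor gives a lower CPM. The factors were 0.877 and 0.837 in WT fasted and 1.11 and 1.13 in HRD1Alb fasted liver. In refed liver they were 0.952 and 0.947 in WT and 1.22 and 0.992 in HRD1Alb. The size of these differences thus depends on the scaling. In bulk liver RNA, fewer cells of a type and less RNA per cell cannot be told apart.

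Averaged over the feeding states, 9 of the 34 genes were lower and 1 was higher in HRD1Alb than in WT liver at an adjusted p under 0.05. Of all tested genes 19.1% passed (7.78% lower and 11.3% higher). Of the genes with a mean of at least 100 CPM, 24.8% were lower. The lower genes of the 34 were the 3 fibrinogen chain genes Fga, Fgb and Fgg, the factor XIII carrier subunit gene F13b, the contact pathway genes F11 and Klkb1, the vitamin K-dependent factor genes F9 and Proz, and the fibrinolysis inhibitor gene Cpb2. The higher gene was Plaur, the urokinase receptor. The median log2 fold change was -0.30 over the 34 genes and 0.005 over all tested genes. Under scaling by total counts alone the median of all genes moved up by 0.30 and that of the 34 genes came to 0.007. The sign of the list's median thus depends on the scaling. Folds of single genes moved as well, and those given below are from the main fit. Over all alternative fits the average log2 fold change ran from -0.90 to -0.53 for F9. It ran from -1.24 to -0.80 for Fga and from -0.83 to -0.37 for F13b. Below the median of all genes lay 21 of the 34 under either scaling. A change of scaling shifts all genes about alike, so this count could hardly move. Under total counts 3 of the 34 were called higher and 8 lower. Over all genes 3780 were then called higher and 337 lower, in place of 1617 and 1115. The count was 15 without the library labelled HRD1Alb refed 1 (background 54%) and 20 without HRD1Alb refed 2 (background 37.4%). It was 1 without HRD1Alb fasted 1 (background 3.66%), 5 without HRD1Alb fasted 2 (6.14%), 6 without WT refed 1 (4.61%), 4 without WT refed 2 (4.32%), 7 without WT fasted 1 (6.47%) and 7 without WT fasted 2 (8.57%), so the share of all genes called was smaller in these 6 fits too. F9 was the gene called in every one of the 8 fits.

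In refed liver alone, 8 of the 34 genes passed, 6 lower and 2 higher, against a background of 11.9% (4.84% lower, 7.09% higher, and under scaling by total counts 1975 genes higher and 283 lower in place of 1016 and 693). The lower genes were F9, Proz, F11, Klkb1, F13b and Cpb2, and the higher genes were Plau, the urokinase gene, and Plaur. The same 8 passed again when either refed HRD1Alb library was left out: 13 genes passed without library 1 (background 52.8%) and 17 without library 2 (background 23.7%). None of the 34 passed without WT refed 1 (background 0.0068%), without WT refed 2 (0.0136%) or in a fit of the 4 refed samples alone (0%), where next to no gene of any kind did, so these counts say nothing about the list. Without HRD1Alb fasted 1 or 2, 3 passed (background 2.83% and 2.91%), and 5 and 4 passed without WT fasted 1 and 2 (5.28% and 5.11%). In fasted liver, no gene of the 34 passed edgeR's quasi-likelihood test (background 1.35%, lowest adjusted p = 0.0586, for Cpb2), while 12 had an unadjusted p under 0.05 (10 lower and 2 higher, against 18.4% of all genes), and DESeq2 called 6 and limma-trend 0. Over all genes 132 were higher (0.921%) and 62 lower (0.433%), or 840 and 47 under scaling by total counts. The model shares 1 estimate of spread over the 4 groups. In a fit without both refed HRD1Alb libraries, 17 genes passed in fasted liver, 16 of them lower (F2, F7, F9, F10, Proc, Proz, F11, F12, Klkb1, Fga, Fgb, Fgg, F13b, Plg, Cpb2 and Lman1) and Ggcx higher, against a background of 22.2% (11.9% lower, 10.3% higher). The count was also 17 without library 1 (background 21.7%) and without library 2 (21.3%), and 9 in a fit of the 4 fasted samples alone (background 14.6%).

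Lower values were common among abundant transcripts in general, and the list was read against these too. Of the 1458 genes with a mean of at least 100 CPM, 22 were clotting genes. In fasted liver both HRD1Alb samples lay below both WT samples for 17 of these 22, and the share over all 1458 genes was 65.6%. In refed liver this held for 12 of 22 (46.2% of the 1458 genes). Over the average of the feeding states, 8 of the 22 were called lower, against 24.8% of the 1458 genes. The median log2 fold change of the 22 was -0.48 in fasted and -0.48 in refed liver, and that of the 1458 genes was -0.27 and -0.21. Over the whole list of 34, non-overlapping lower values were seen for 19 genes in fasted liver (34.2% of all genes) and 15 in refed liver (30.1%), and non-overlapping higher values for 6 (30.6%) and 5 (30.7%).

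**Figure D1:**
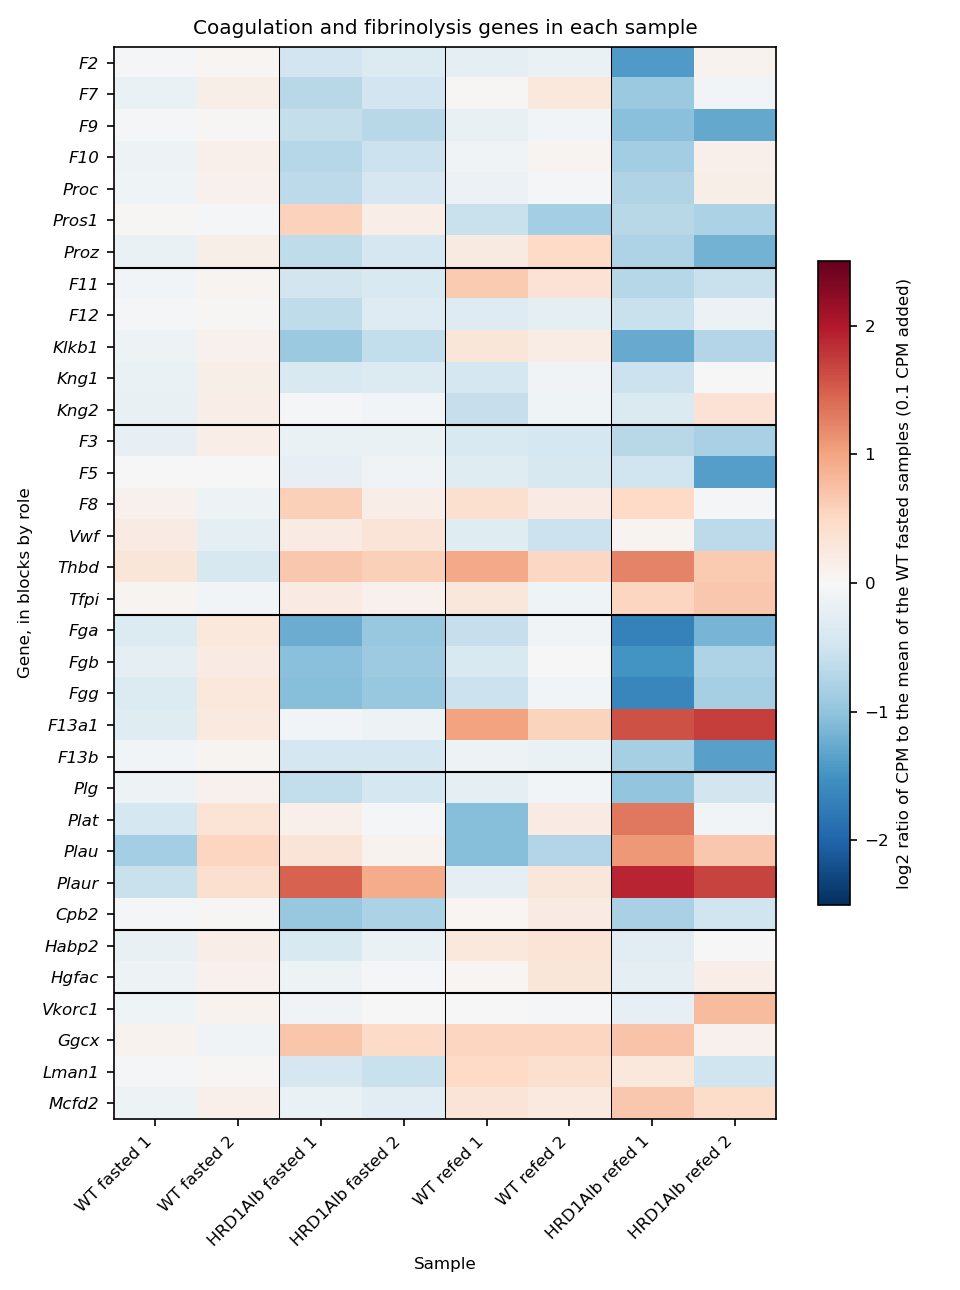
Level of each of the 34 genes (rows, in blocks by role) in each of the 8 samples (columns), as the log2 ratio of CPM to the mean of the WT fasted samples, with 0.1 CPM added. The fibrinogen rows Fga, Fgb and Fgg were blue in all 4 HRD1Alb samples, Plaur was red in all 4, and F2 ran from -1.43 in HRD1Alb refed 1 to 0.08 in HRD1Alb refed 2.

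Fibrinogen transcripts took the most reads of the list. Fga, Fgb and Fgg encode the Aα, Bβ and γ chains of fibrinogen, the precursor of fibrin, and lie side by side on chromosome 3 (Fgg chr3:83007724-83015049, Fga chr3:83026076-83033627, both on the plus strand, and Fgb chr3:83040141-83049863 on the minus strand, GRCm38, with gaps of 11027 and 6514 bases). Because the 3 chain genes moved together, the 250 bases before each of their RefSeq starts are shown, and those of F9 beside them because F9 had the lowest adjusted p of the list in the average over feeding states (RefSeq, GRCm38.p6: Fga chr3:83025903-83026152 plus strand, Fgb chr3:83049864-83050113 minus strand, Fgg chr3:83007474-83007723 plus strand, F9 chrX:59999214-59999463 plus strand). Capitals mark matches, on either strand, to the letters GTTAAT (core of the site of HNF1, a hepatocyte transcription factor), TTGNGNAA (C/EBP), CTGGGAA (the IL-6 response element of acute-phase genes) and CAAAGTNCA (HNF4).
Fga promoter: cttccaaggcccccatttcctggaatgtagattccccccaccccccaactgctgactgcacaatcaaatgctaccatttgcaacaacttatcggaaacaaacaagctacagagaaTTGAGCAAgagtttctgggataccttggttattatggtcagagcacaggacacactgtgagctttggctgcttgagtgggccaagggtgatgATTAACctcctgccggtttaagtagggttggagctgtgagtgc
Fgb promoter: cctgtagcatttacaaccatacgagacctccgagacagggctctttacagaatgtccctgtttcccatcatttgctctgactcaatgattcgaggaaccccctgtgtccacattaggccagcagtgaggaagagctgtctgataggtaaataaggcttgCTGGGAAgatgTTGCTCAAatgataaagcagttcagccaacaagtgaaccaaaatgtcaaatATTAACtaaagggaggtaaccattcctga
Fgg promoter: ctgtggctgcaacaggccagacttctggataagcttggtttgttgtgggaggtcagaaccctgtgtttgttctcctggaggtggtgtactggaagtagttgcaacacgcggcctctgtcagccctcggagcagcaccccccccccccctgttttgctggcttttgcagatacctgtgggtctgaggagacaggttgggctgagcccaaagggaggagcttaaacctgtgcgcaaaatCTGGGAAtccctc
F9 promoter: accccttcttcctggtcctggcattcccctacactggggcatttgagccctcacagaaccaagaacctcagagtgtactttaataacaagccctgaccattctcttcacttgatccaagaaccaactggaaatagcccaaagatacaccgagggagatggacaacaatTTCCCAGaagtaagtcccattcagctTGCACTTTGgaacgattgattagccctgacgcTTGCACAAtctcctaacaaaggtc
The Fga promoter held the HNF1 letters 43 bases and the C/EBP letters 135 bases before the start. The RefSeq start of Fga lies downstream of the gene start given above, which comes from another annotation. The end of this promoter, with the HNF1 match, therefore falls inside that gene model. In Fgb the HNF1, C/EBP and IL-6 letters lay 29, 80 and 91 bases before the start, and in Fgg the IL-6 letters lay 13 bases before it. The F9 promoter held the C/EBP, HNF4 and IL-6 letters 24, 56 and 82 bases before the start, and no match overlapped another in these 4 sequences. RefSeq promoters were found for 26 of the 34 genes (28 promoters), of which 6 held GTTAAT, 5 TTGNGNAA, 4 CTGGGAA and 1 CAAAGTNCA. Over all 32851 promoters of the same length the shares were 6.43%, 11.7%, 9.1% and 1.19%. One more search, for TGATGNAA (the ATF4-C/EBP composite site), matched 1 of the 28 and 3.45% of all promoters. These are matches of letters and not measured binding sites.

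Fga was at 3727 and 5691 CPM in WT fasted, 2004 and 2452 CPM in HRD1Alb fasted, 3158 and 4449 CPM in WT refed, and 1451 and 2111 CPM in HRD1Alb refed liver. Fgb was at 3550 and 4877, 2039 and 2234, 3235 and 4203, and 1505 and 2478 CPM in the same order. Fgg was at 2707 and 4110, 1633 and 1772, 2352 and 3238, and 1102 and 1922 CPM. For each chain, every HRD1Alb sample lay below both WT samples of its feeding state. Averaged over the feeding states, Fga was 2.12-fold lower (log2 fold change -1.09, SE 0.22, adjusted p = 0.0166, range over the alternatives 3.45e-05 to 0.0882). Fgb was 1.92-fold lower (-0.94, SE 0.21, adjusted p = 0.0227, range 0.000277 to 0.106), and Fgg was 1.92-fold lower (-0.94, SE 0.23, adjusted p = 0.0316, range 0.00113 to 0.127). All 3 calls held without either refed HRD1Alb library, where more of all genes passed. They were lost without HRD1Alb fasted 1 and without HRD1Alb fasted 2. That of Fga was also lost without WT fasted 2 and without WT refed 2, that of Fgb without these and WT refed 1, and that of Fgg without any 1 of the 4 WT samples. Within each feeding state the log2 fold changes were -1.08, -0.98 and -1.002 in fasted and -1.09, -0.90 and -0.89 in refed liver, with edgeR adjusted p from 0.127 to 0.172 and from 0.0592 to 0.111. Over the alternatives the fasted values ran from -1.36 to -0.69 (Fga), -1.20 to -0.59 (Fgb) and -1.28 to -0.61 (Fgg). The refed values ran from -1.40 to -0.83 (Fga), -1.31 to -0.59 (Fgb) and -1.35 to -0.55 (Fgg).

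Levels per kilobase used the longest annotated transcript of each gene, 2587 bases for Fga, 3810 for Fgb and 1741 for Fgg. On that scale Fgg was highest in every sample, followed by Fga and then Fgb. In CPM Fgg was the lowest of the chains in every sample, so the order depends on these lengths. Per kilobase, the ratio of Fga to Fgg lay between 0.739 and 0.932 and that of Fgb to Fgg between 0.542 and 0.628. The lowest ratio of Fga to Fgg came from HRD1Alb refed 2, and the other 7 samples lay between 0.826 and 0.932. Together the 3 chains took 46.4% and 52.8% of the summed CPM of the 34 genes in WT fasted, 38.6% and 40.04% in HRD1Alb fasted, 44.6% and 49.9% in WT refed and 34.5% and 37.5% in HRD1Alb refed liver. Every HRD1Alb sample had a smaller share than every WT sample.

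**Figure D2:**
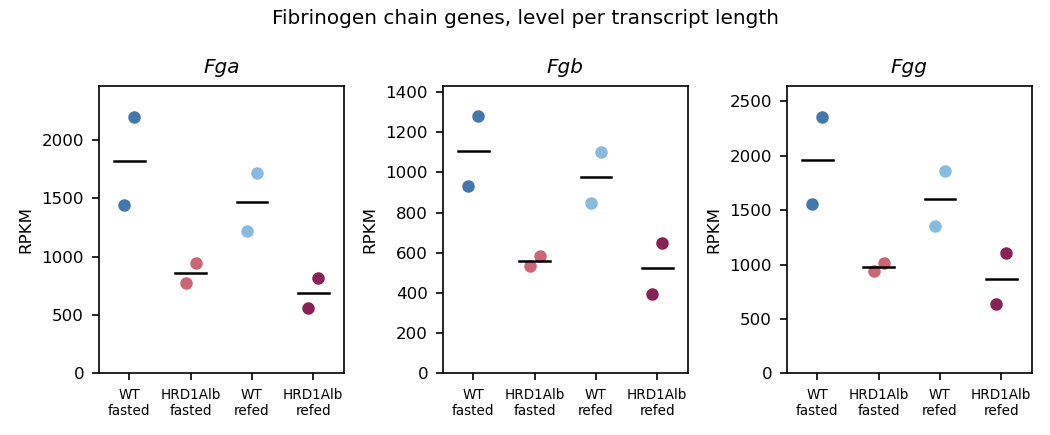
Levels of Fga, Fgb and Fgg per transcript length (RPKM, vertical axes from 0) in the 4 groups, with a point for each sample and a line at the group mean. The 4 HRD1Alb samples of Fga lay between 561 and 948 RPKM and the 4 WT samples between 1221 and 2200 RPKM.

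Fibrinogen belongs to the acute-phase proteins, whose levels shift in inflammation, and 15 other acute-phase genes were examined as a list. Averaged over the feeding states, 4 of the 15 were lower and 1 was higher at an adjusted p under 0.05 (7.78% and 11.3% of all genes). Of the genes with a mean of at least 100 CPM, 24.8% were lower. Crp, the C-reactive protein gene, was at 602 and 663 CPM in WT fasted, 376 and 388 in HRD1Alb fasted, 549 and 543 in WT refed and 305 and 339 in HRD1Alb refed liver (1.67-fold lower, adjusted p = 0.00651). Saa4 (log2 fold change -0.97), Itih3 (-0.66) and Cp, the ceruloplasmin gene (-0.45), were the other lower genes. Apcs, which encodes serum amyloid P, was higher (2.13-fold, adjusted p = 0.0317). In refed liver 2 of the 15 were lower, Crp and Saa4 (4.84% of all genes were lower). The calls of these acute-phase genes were not examined under the alternative fits. Among the genes that did not pass, WT refed 2 stood apart from WT refed 1 in 3 chosen after their values were seen: Saa1 at 522 against 23.2 CPM, Saa2 at 319 against 5.63 CPM and Lcn2 at 60.5 against 5.38 CPM. Saa1 and Saa2 are close copies, so the split of reads between them is uncertain. Lcn2 was highest in HRD1Alb refed 2, at 147 CPM. The part of that WT sample's state in the fibrinogen calls, which were lost without it, was not tested.

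Factor XIII crosslinks fibrin, and its 2 subunit genes were read at very different levels. F13b, the carrier subunit made in liver, was at 221 and 245 CPM in WT fasted, 171 and 171 in HRD1Alb fasted, 212 and 209 in WT refed and 131 and 91.1 in HRD1Alb refed liver. The groups did not overlap in either state. F13b was 1.89-fold lower in refed liver (log2 fold change -0.92, SE 0.20, adjusted p = 0.0315, range over the alternatives 0.000253 to 0.185) and 1.61-fold lower on average (adjusted p = 0.0179). Both calls held without either refed HRD1Alb library, where more of all genes passed. They were lost when any other single library was left out, and under scaling by total counts (edgeR adjusted p = 0.112 and 0.169). F13a1, the catalytic subunit gene, expressed in macrophages and megakaryocytes, had 4 to 38 counts per sample. It was at 0.0998 and 0.195 CPM in WT fasted, 0.137 and 0.127 in HRD1Alb fasted, 0.395 and 0.263 in WT refed and 0.643 and 0.723 in HRD1Alb refed liver. F13a1 rose with refeeding in HRD1Alb liver, where 10.5% of all genes passed (5.09-fold, log2 fold change 2.35, SE 0.47, edgeR adjusted p = 0.0266, range over the alternatives 0.0086 to 0.21). In WT liver it was 2.21-fold higher after refeeding, with no overlap (log2 fold change 1.15, edgeR adjusted p = 0.326). The difference between the genotypes did not pass (edgeR adjusted p = 0.619). The HRD1Alb call was lost without either HRD1Alb fasted or either WT refed sample.

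The vitamin K-dependent proteins F2, F7, F9, F10, Proc, Pros1 and Proz carry the carboxylated residues that bind them to membranes. Averaged over the feeding states, 2 of the 7 were lower (7.78% of all genes were, and 24.8% of those with a mean of at least 100 CPM). F9, factor IX, the protease that activates factor X, was at 337 and 355 CPM in WT fasted, 230 and 213 in HRD1Alb fasted, 304 and 331 in WT refed and 167 and 142 in HRD1Alb refed liver (chrX:59999464-60030759). Its groups did not overlap in either state and its replicates lay close together. F9 was 2.05-fold lower in refed liver (log2 fold change -1.04, SE 0.16, adjusted p = 0.0142, range over the alternatives 8.95e-08 to 0.137) and 1.79-fold lower on average (-0.84, SE 0.11, adjusted p = 0.00537, range 1.51e-10 to 0.0399). Without the library labelled HRD1Alb refed 1 the refed log2 fold change was -1.16 (adjusted p = 0.000371), and the refed call was lost without either WT refed sample.

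Proz encodes protein Z, the cofactor of an inhibitor of factor Xa. It was at 197 and 247 CPM in WT fasted, 144 and 166 in HRD1Alb fasted, 260 and 314 in WT refed and 130 and 97.9 in HRD1Alb refed liver. Every HRD1Alb sample lay below every WT sample. Proz was 2.52-fold lower in refed liver (log2 fold change -1.33, SE 0.21, adjusted p = 0.0156, range 1.02e-06 to 0.137) and 1.90-fold lower on average (adjusted p = 0.00916, range 7.52e-07 to 0.0593). The refed call was lost without either WT refed sample, and the average call without HRD1Alb fasted 1 and without WT refed 2. Proz lies on chromosome 8 beside F10 (factor X) and F7 (factor VII), at chr8:13060914-13076026, 4238 bases from F10, which itself is 1499 bases from F7.

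F2, prothrombin, the precursor of thrombin, had the highest level of this group at 1847 and 1970 CPM in WT fasted, 1369 and 1513 in HRD1Alb fasted, and 1644 and 1710 in WT refed liver. The refed HRD1Alb libraries were at 710 and 2021 CPM and lay on either side of WT. The refed log2 fold change of F2 was -0.30 with both (adjusted p = 0.629), 0.26 without HRD1Alb refed 1 (adjusted p = 0.152) and -1.24 without HRD1Alb refed 2 (adjusted p = 0.00296). F10, Proc (protein C, the anticoagulant that inactivates factors Va and VIIIa) and F7 had non-overlapping lower values in fasted HRD1Alb liver (log2 fold changes -0.62, -0.53 and -0.58, adjusted p from 0.332 to 0.386), and in the refed state only F7 did (-0.58, adjusted p = 0.189). F7 was at 86.7 and 101 CPM in WT refed and 44.7 and 80.7 CPM in HRD1Alb refed liver, and its refed log2 fold change was -0.22 without HRD1Alb refed 1 (adjusted p = 0.307) and -1.08 without HRD1Alb refed 2 (adjusted p = 0.00796). Without HRD1Alb refed 1 the refed change of F10 and of Proc turned positive (log2 fold changes 0.12 and 0.23), as that of F2 did, and without HRD1Alb refed 2 both were lower (-0.86 and -0.67, edgeR adjusted p = 0.0118 and 0.0257).

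Pros1, protein S, the cofactor of activated protein C, was the member of the group that passed with refeeding. It was at 125 and 121 CPM in WT fasted, 83.9 and 67.9 in WT refed, 184 and 139 in HRD1Alb fasted and 76.1 and 71.0 in HRD1Alb refed liver. Both genotypes had lower values after refeeding, with no overlap. Pros1 fell with refeeding in HRD1Alb liver, where it was 2.20-fold lower (log2 fold change -1.14, SE 0.19, adjusted p = 0.0165, range over the alternatives 1.52e-05 to 0.138). The call held without either refed HRD1Alb library, where more of all genes passed, and was lost without either HRD1Alb fasted sample. In WT liver the difference was 1.62-fold (-0.70, adjusted p = 0.123), and it passed in the fit without both refed HRD1Alb libraries (adjusted p = 0.0255).

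In the contact pathway, 2 of 5 genes were lower both in refed liver and on average (4.84% and 7.78% of all genes were lower). On average, 24.8% of the genes with a mean of at least 100 CPM were lower. F11 encodes factor XI, which activates factor IX, and Klkb1 encodes plasma prekallikrein, which frees bradykinin from kininogen and activates factor XII. The genes are neighbours on the minus strand of chromosome 8 (F11 chr8:45241174-45262031, Klkb1 chr8:45266689-45294859, 4658 bases apart). F11 was at 59.9 and 65.3 CPM in WT fasted, 45.7 and 48.1 in HRD1Alb fasted, 98.2 and 80.2 in WT refed and 38.1 and 42.3 in HRD1Alb refed liver. Klkb1 was at 140 and 165, 79.8 and 100.1, 189 and 174, and 63.5 and 92.3 CPM in the same order. For both genes each HRD1Alb sample lay below every WT sample. F11 was 2.22-fold lower in refed liver (log2 fold change -1.15, SE 0.17, adjusted p = 0.0128, range 3.34e-07 to 0.12) and 1.72-fold lower on average (adjusted p = 0.00718). Klkb1 was 2.33-fold lower in refed liver (-1.22, SE 0.23, adjusted p = 0.0225, range 0.000102 to 0.153) and 1.99-fold lower on average (adjusted p = 0.00884). Both average calls were lost without HRD1Alb fasted 1 (highest adjusted p 0.0521 for F11 and 0.0564 for Klkb1) and no other single library, and both refed calls without either WT refed sample. The refed call of Klkb1 was also lost without WT fasted 2, without either HRD1Alb fasted sample and with a correction for transcript length. Exons of Klkb1 share 2267 bases with the same-strand gene model Gm45753, and how the counting treated such reads is not given in the sources used here.

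**Figure D3:**
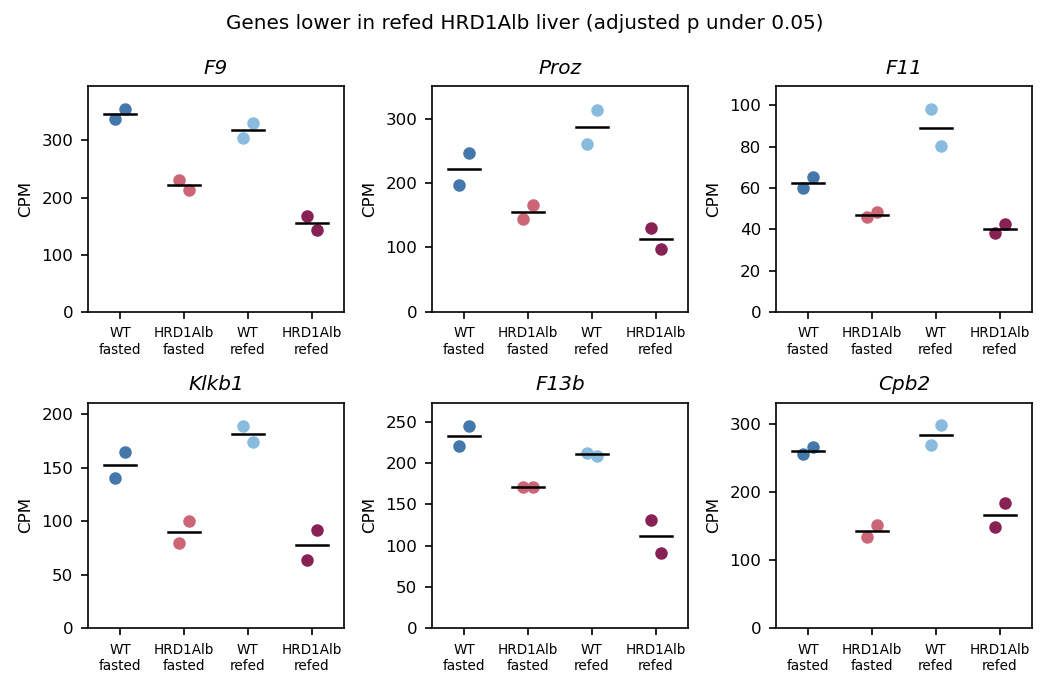
CPM of the 6 genes that were lower in refed HRD1Alb liver at an adjusted p under 0.05 (F9, Proz, F11, Klkb1, F13b, Cpb2), with a point for each sample, a line at each group mean and vertical axes from 0. In refed liver the highest HRD1Alb point of each gene lies below the lowest WT point, for F9 167 against 304 CPM and for Cpb2 185 against 269 CPM.

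The other contact genes did not pass. F12, factor XII, which starts the pathway on charged surfaces, had a log2 fold change of -0.48 in fasted liver (adjusted p = 0.253) and -0.06 in refed liver (adjusted p = 0.838). Kng1, the gene of the bradykinin precursor kininogen, had the highest level of the group at 2171 and 2677 CPM in WT fasted, 1856 and 1912 in HRD1Alb fasted, 1789 and 2296 in WT refed and 1675 and 2415 in HRD1Alb refed liver. Its refed groups overlapped (log2 fold change 0.002, adjusted p = 0.997). Kng1 and its paralog Kng2, 28383 bases away on chromosome 16, share 557 stretches of 50 bases (17.2% of those in Kng1 and 20.7% of those in Kng2), so the split of reads between them is uncertain.

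Of the 5 fibrinolysis genes, 1 was lower and 2 were higher in refed HRD1Alb liver (4.84% and 7.09% of all genes). Cpb2 encodes carboxypeptidase B2, also known as TAFI, which trims the plasminogen-binding ends of fibrin and so slows its breakdown. It was at 256 and 266 CPM in WT fasted, 135 and 151 in HRD1Alb fasted, 269 and 299 in WT refed and 149 and 185 in HRD1Alb refed liver. The HRD1Alb samples lay below all 4 WT samples. Cpb2 was 1.70-fold lower in refed liver (log2 fold change -0.77, SE 0.17, adjusted p = 0.0339, range 0.00182 to 0.217) and 1.76-fold lower on average (-0.82, SE 0.12, adjusted p = 0.00701, range 2.6e-07 to 0.0509, lost only without HRD1Alb fasted 1), and 1.82-fold lower in fasted liver (adjusted p = 0.0586). The refed call held without either refed HRD1Alb library, where more of all genes passed. It was lost when any other single library was left out. Plg, plasminogen, the precursor of plasmin, was at 2480 and 2914, 1760 and 1977, 2301 and 2583, and 1359 and 1963 CPM in the same order of groups. Its groups did not overlap in either state, and the average log2 fold change was -0.54 (SE 0.16, adjusted p = 0.0523, 1.46-fold lower).

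Plaur, the urokinase receptor, and Plau, urokinase, a plasminogen activator, were read at low levels. Plaur had 7 to 84 counts per sample, at 0.175 and 0.438 CPM in WT fasted, 1.04 and 0.672 in HRD1Alb fasted, 0.247 and 0.394 in WT refed and 1.42 and 1.21 in HRD1Alb refed liver. Plau had 22 to 163 counts, at 0.648 and 1.85, 1.58 and 1.33, 0.543 and 0.709, and 2.76 and 2.04 CPM. For Plaur every HRD1Alb sample exceeded every WT sample, and for Plau the groups overlapped in fasted and not in refed liver. Plaur was 4.09-fold higher in refed liver (log2 fold change 2.03, SE 0.51, adjusted p = 0.0448, range 0.0081 to 0.252) and 3.36-fold higher on average (1.75, SE 0.36, adjusted p = 0.0186, range 0.000701 to 0.0885). Plau was 3.83-fold higher in refed liver (1.94, SE 0.50, adjusted p = 0.0496, range 0.0045 to 0.256). Both refed calls held without either refed HRD1Alb library, where 1 sample remained in the group and more of all genes passed. They were lost without either WT refed or either HRD1Alb fasted sample, and that of Plaur also without either WT fasted sample and with a correction for transcript length (adjusted p = 0.0622). The average call of Plaur was lost without WT fasted 1, either HRD1Alb fasted or either WT refed sample. Plat, the tissue plasminogen activator, was at 0.474 and 0.876, 0.743 and 0.654, 0.272 and 0.788, and 1.83 and 0.636 CPM, with overlapping groups throughout.

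Both Plaur and Plau are expressed in myeloid cells. The summed level of 7 recruited macrophage and monocyte markers, all found by symbol, was 5.69 and 7.08 CPM in WT fasted, 44.4 and 24.6 in HRD1Alb fasted, 6.79 and 6.96 in WT refed and 48.97 and 53.27 in HRD1Alb refed liver. No marker of this list was at 0 in all libraries. Of 10 Kupffer cell markers 9 were found, with sums of 127 to 144 CPM in WT and 311 to 716 CPM in HRD1Alb liver. The 7 stellate cell and fibroblast markers summed to 167 to 356 CPM in WT and 349 to 487 CPM in HRD1Alb liver. For the 3 neutrophil markers the sums were 1.05 to 1.86 CPM and 1.42 to 9.14 CPM. The part of any of these cell types in the values of Plaur, Plau and F13a1 was not tested. Platelet markers summed to 3.47 to 4.64 CPM in WT and 5.22 to 7.78 CPM in HRD1Alb liver.

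**Figure D4:**
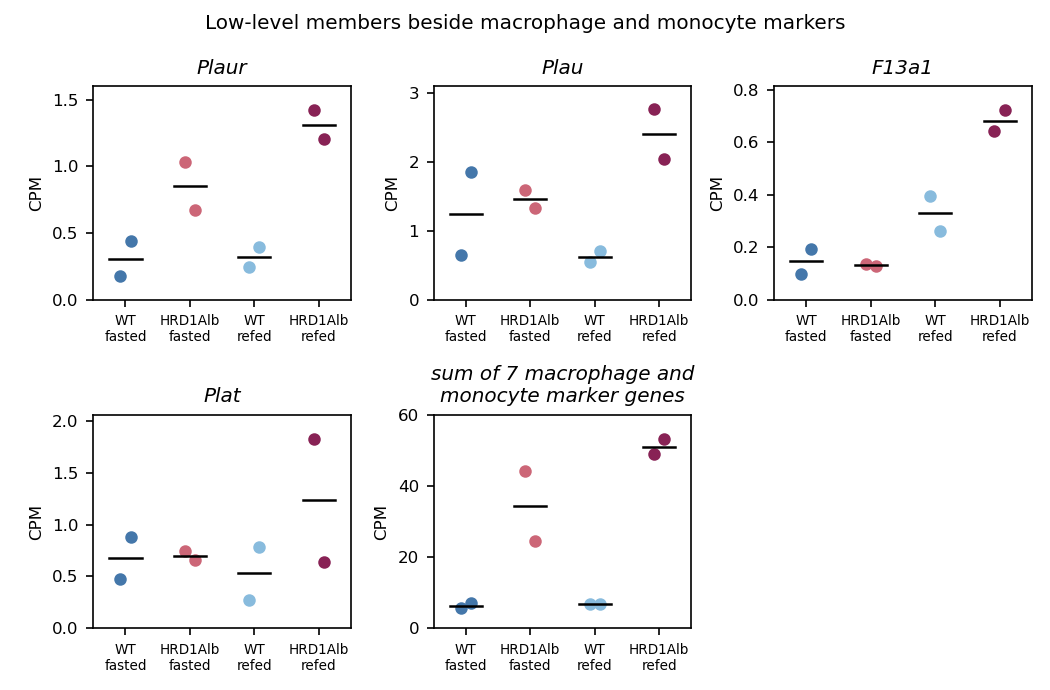
CPM of Plaur, Plau, F13a1 and Plat beside the summed CPM of 7 macrophage and monocyte marker genes, with a point for each sample, a line at each group mean and vertical axes from 0. The marker sum lies at 5.69 to 7.08 CPM in the 4 WT samples and at 24.6 to 53.3 CPM in the 4 HRD1Alb samples, and the Plaur points of HRD1Alb liver lie above all WT points.

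Cofactors and regulators at the vessel wall did not pass in any of the 3 comparisons of genotype. F5, factor V, the cofactor of factor Xa, was the abundant one at 735 and 729 CPM in WT fasted, 639 and 689 in HRD1Alb fasted, 592 and 557 in WT refed and 515 and 284 in HRD1Alb refed liver. The last value stood apart from its replicate. The refed log2 fold change of F5 was -0.52 (adjusted p = 0.206), -1.03 without HRD1Alb refed 1 (adjusted p = 0.000619) and -0.16 without HRD1Alb refed 2 (adjusted p = 0.370). F3 (tissue factor, which starts clotting with factor VII), F8 (factor VIII, the cofactor of factor IXa), Vwf (von Willebrand factor, which carries factor VIII), Thbd (thrombomodulin, which turns thrombin towards protein C) and Tfpi (the inhibitor of tissue factor with factor VIIa) lay between 1.78 and 12.9 CPM. Their log2 fold changes on average over the feeding states ran from -0.27 for F3 to 0.45 for Thbd, with edgeR adjusted p from 0.157 to 0.537. The 8 liver endothelium markers, whose cells express most of these 5 genes, summed to 117 to 142.5 CPM in WT and 125 to 158 CPM in HRD1Alb liver.

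Habp2, a protease that can activate factor VII, and Hgfac, a related protease that activates hepatocyte growth factor, had average log2 fold changes of -0.35 (adjusted p = 0.103) and -0.15 (adjusted p = 0.477). Hgfac was at 190 and 223 CPM in WT fasted, 188 and 201 in HRD1Alb fasted, 215 and 255 in WT refed and 175 and 233 in HRD1Alb refed liver, with overlap in both states. Habp2, F5, Fgg and F13a1 share 268, 262, 115 and 14 exonic bases with genes on the opposite strand (Nrap, Gm16548, Gm30097 and Gm30489), and since the strand setting of the counting is not given, reads from these stretches cannot be told apart.

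The enzymes of the vitamin K cycle and the cargo receptor form a last group. Ggcx is the carboxylase that modifies the vitamin K-dependent factors, Vkorc1 regenerates vitamin K and is the target of warfarin, and Lman1 with Mcfd2 carries factors V and VIII from the endoplasmic reticulum to the Golgi. None of the 4 passed for genotype in the fit of all 8 samples. Ggcx was at 67.3 and 59.8 CPM in WT fasted, 102 and 88.9 in HRD1Alb fasted, 92.0 and 91.8 in WT refed and 104 and 68.2 in HRD1Alb refed liver. The WT fasted samples were the lowest of the 8. Its fasted log2 fold change was 0.59 (SE 0.22, adjusted p = 0.215), and 0.59 with adjusted p = 0.0124 in the fit without both refed HRD1Alb libraries. Lman1 had non-overlapping lower values in both states (log2 fold changes -0.48 and -0.51, adjusted p = 0.353 and 0.183). It was at 424 and 398 CPM in WT refed and 362 and 213 CPM in HRD1Alb refed liver, and its refed log2 fold change was -0.95 without HRD1Alb refed 1 (adjusted p = 0.000755) and -0.19 without HRD1Alb refed 2 (adjusted p = 0.290). Mcfd2 was at 307 and 368 CPM in WT fasted, 301 and 280 in HRD1Alb fasted, 422 and 399 in WT refed and 538 and 464 in HRD1Alb refed liver. Mcfd2 rose 1.73-fold with refeeding in HRD1Alb liver (0.79, SE 0.17, edgeR adjusted p = 0.0308, range 0.000378 to 0.232). In WT liver it was 1.22-fold higher after refeeding, with no overlap (edgeR adjusted p = 0.483). The HRD1Alb call held without either refed HRD1Alb library, where more of all genes passed. It was lost when any other single library was left out, under scaling by total counts and with a correction for transcript length. Vkorc1 was at 250 CPM in HRD1Alb refed 2 and at 125 to 155 CPM in the other 7 samples, and its reads may include those of the same-strand model Gm21974, with which it shares 401 exonic bases.

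For refeeding in WT liver, no gene of the 34 passed edgeR's test (background 2.61%), 3 had an unadjusted p under 0.05 (16.3% of all genes), DESeq2 called 1 and limma-trend 0. Over all genes 172 were higher (1.2%) and 202 lower (1.41%), or 162 and 76 under scaling by total counts. In the fit without both refed HRD1Alb libraries, 4 passed (background 18%, 9.12% lower and 8.91% higher): Pros1 was lower, and F11 (log2 fold change 0.51), Ggcx (0.53) and Lman1 (0.44) were higher. In HRD1Alb liver 3 of the 34 passed, Pros1 lower and F13a1 and Mcfd2 higher (background 10.5%, 5.05% lower and 5.43% higher). The count was 16 without HRD1Alb refed 1 (background 51.4%), 5 without HRD1Alb refed 2 (background 19.7%), 0 without HRD1Alb fasted 1 or 2 (background 0.102% and 0.239%) and 1 without WT refed 1 or 2 (3.05% and 3.1%). The comparisons of genotype and of feeding share their control samples.

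Whether the effect of genotype differed between the feeding states was tested as an interaction. No gene of the 34 passed, and none of the 14328 did (lowest adjusted p among the 34 0.561, for F11), while 3 of the 34 had an unadjusted p under 0.05 (8.44% of all genes) and DESeq2 and limma-trend called 0 of the 34. F11, Proz and Plau were the 3, with interaction log2 values of -0.73, -0.81 and 1.72. Without HRD1Alb refed 1, 10 of the 34 passed (background 33.4%): F9, Proz, F11, F5, F13b and Ggcx were lower, and F2, F10, Proc and Vkorc1 were higher. Without HRD1Alb refed 2 none passed (background 0.69%).

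**Figure D5:**
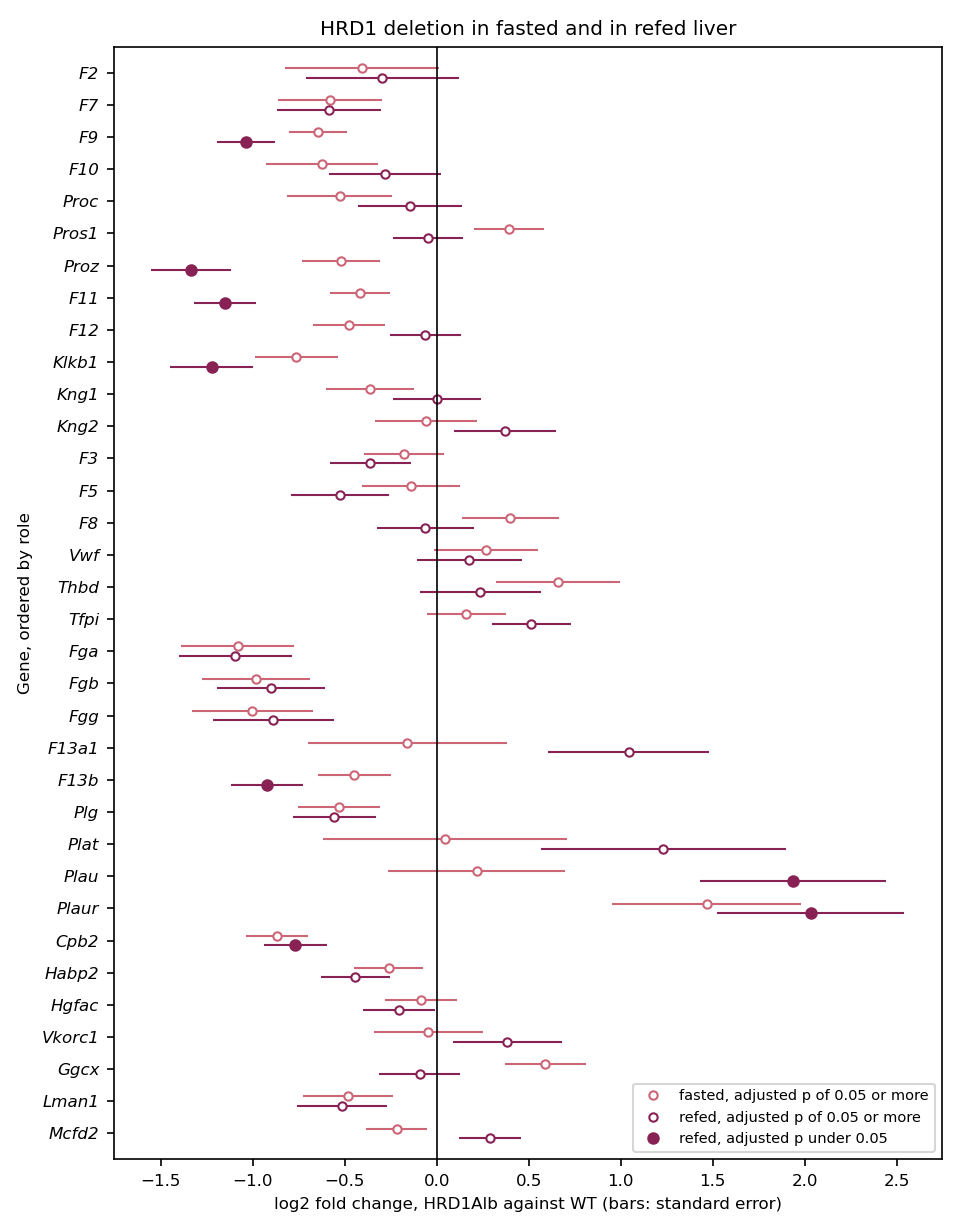
Log2 fold change of HRD1Alb against WT liver for each of the 34 genes, in the fasted state and in the refed state, with bars of 1 standard error and filled points where the edgeR adjusted p was under 0.05. Filled points occur in the refed state alone: F9, Proz, F11, Klkb1, F13b and Cpb2 left of 0, and Plau and Plaur right of it.

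Beyond the 34 genes, 23 of 28 other genes of haemostasis could be tested. Averaged over the feeding states, 4 were lower and 3 were higher, against 7.78% and 11.3% of all genes. Of the genes with a mean of at least 100 CPM, 24.8% were lower on average. In refed liver 1 was lower and 2 were higher, 3 of 23 and near the background of 11.9%, and in fasted liver 1 was higher (background 0.921%). Serpinc1, antithrombin, the main inhibitor of thrombin, was at 2117 and 2378 CPM in WT fasted, 1494 and 1567 in HRD1Alb fasted, 2024 and 2114 in WT refed and 1466 and 1649 in HRD1Alb refed liver (1.40-fold lower, adjusted p = 0.0304). Serpind1, heparin cofactor II, was 1.68-fold lower (adjusted p = 0.00994), and Hrg, the histidine-rich glycoprotein that binds plasminogen, was 1.46-fold lower (adjusted p = 0.0346). Anxa2, a plasminogen receptor subunit, was at 10.6 and 12.5 CPM in WT fasted, 50.4 and 50.8 in HRD1Alb fasted, 14.3 and 15.7 in WT refed and 148 and 124 in HRD1Alb refed liver. It was higher in all 3 comparisons of genotype (4.37-fold in fasted liver, adjusted p = 0.0116, and 9.05-fold in refed liver, adjusted p = 0.00126). Procr, the endothelial protein C receptor, was higher on average (2.77-fold, adjusted p = 0.0139), as was the platelet integrin gene Itga2b (1.70-fold, adjusted p = 0.0430). The calls of these other haemostasis genes were not examined under the alternative fits. Scaling by total counts moved the median of all genes up by 0.30 in the average comparison.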

How the data were processed

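Liver RNA of 8 samples was sequenced on an Illumina NextSeq 500, 1 lane per sample. The deposited values are raw read counts per gene symbol, with no normalization by the authors. The submitters' processing notes name cutadapt, STAR, HTSeq, DESeq2 and mm10, whereas the study's methods name ERANGE for counting and limma for testing, and versions, annotation and strand setting are not given in the sources used here. The extraction note of every sample mentions refeeding, also for the samples labelled fasted, and groups were taken from the treatment label.

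The test was edgeR 4.0.16 in R 4.3.3: TMM scaling (factors 0.837 to 1.22), filterByExpr (minimum count 10, minimum total 15; 14328 of 23337 genes kept), and 1 quasi-likelihood fit of all 8 samples with a mean per group (common dispersion 0.0573). The 6 contrasts were tested, with Benjamini-Hochberg adjustment over all tested genes and a threshold of 0.05. The average contrast is the mean of the 2 HRD1Alb groups minus the mean of the 2 WT groups. Standard errors (SE) were derived from the F statistic, as the size of the log2 change over its square root. CPM are TMM-scaled, RPKM are CPM per kilobase of the longest GENCODE M21 transcript of each gene, and positions are those of GRCm38. At these depths 3 counts equal 0.0611 to 0.0746 CPM before scaling. An exact permutation test of 2 against 2 samples cannot go below p = 0.333, so p-values rest on spread shared across genes, and since nothing in the labels says that samples are separate mice, they measure the spread between these samples.

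Alternatives were RLE scaling, DESeq2 1.42.0, limma-trend (limma 3.58.1, prior count 1), no filter, at least 10 counts in every sample, the contrast's samples alone, the replicate number as a block, a transcript length correction, both together, and each sample left out in 8 fits. Scaling by total counts alone and leaving out both refed HRD1Alb libraries were added after seeing the data. Scripts were tested on simulated data. The 34 genes, their roles and the other lists were chosen with earlier results of these data known. All 34 genes are named; values in every sample are given for genes called in any contrast and for the most abundant gene of each role, and for Ggcx and Plat, chosen after their values were seen. Of the other haemostasis and acute-phase genes, at most 6 per list called for genotype are named, by smallest p. Promoters are from RefSeq (GRCm38.p6). Plots were made in matplotlib 3.10.9 (Python 3.11.15).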

Additional observations from a re-analysis of the deposited data

How the results depend on the processing

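The 21 calls of a gene in a contrast were compared with 365 alternative values. Of these 267 kept the call, 98 lost it and 0 had the opposite sign. The calls were picked from the same samples that the alternatives refit, so their kept signs are no support for their direction. Signs did change among genes not called, in refed liver for Kng1 in 12 of 18 alternatives and for F8 in 5 of 18. Calls numbered 0 of the 34 for HRD1 deletion in fasted liver, and 6 with DESeq2, 9 with the contrast's samples alone, 2 with the transcript length correction, 3 with that correction and the replicate block, and 17 without both refed HRD1Alb libraries. In refed liver the count of 8 became 0 with the contrast's samples alone and 13 with block and length correction. The average count of 10 became 17 with the length correction and 18 with block and length correction. For refeeding in WT liver 0 became 1 with DESeq2, 3 with the contrast's samples alone, 1 with block and length correction and 4 without both refed HRD1Alb libraries, and in HRD1Alb liver 3 became 5 with DESeq2 and 0 with the contrast's samples alone. With each sample left out in turn the counts ran from 0 to 17 (fasted), 0 to 17 (refed), 1 to 20 (average), 0 to 4 (refeeding in WT), 0 to 16 (refeeding in HRD1Alb) and 0 to 10 (interaction), and where this left a group with 1 sample, that sample was assumed to vary like the other groups. The cause of these changes was not tested. RLE scaling, limma-trend, no filter and the stricter filter kept every count of the 34 within 1.5 times. Over all genes the fasted count of 194 was 1094 with DESeq2, 323 with no filter, 2033 with the contrast's samples alone, 119 with the block, 771 with the length correction, 570 with both, 887 under scaling by total counts and 3121 without both refed HRD1Alb libraries. The refed count of 1709 was 3190 with DESeq2, 2619 with the length correction and 0 with the contrast's samples alone, and the average count of 2732 was 4117 under total counts. Refeeding in WT gave 374, and 1086 with DESeq2, 1882 with the contrast's samples alone, 816 and 735 with the length correction without and with the block, 238 under total counts and 2535 without both refed HRD1Alb libraries. In HRD1Alb liver it gave 1501, and 2921 with DESeq2 and 0 with the contrast's samples alone, and the interaction gave 0, and 105 with DESeq2 and 2 with no filter. The interaction and the average use all 4 groups, so a fit of the contrast's samples alone gives no other value for them.

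Same-numbered samples deviated together only weakly (r from 0.0161 to 0.179 over 6 pairs of groups), so the replicate numbers were not taken to pair samples. With the replicate block the counts were 0 (fasted), 9 (refed), 12 (average), 0 and 3 (refeeding in WT and in HRD1Alb) and 0 (interaction), and 19 of 21 calls held. The 2 lost were Plau and Plaur in refed liver (adjusted p = 0.0609 and 0.0606). At 4 to 38 counts per sample for F13a1 and 7 to 84 for Plaur, depth limits the precision of their folds.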
